A study of Homo sapiens with 12 samples.

Results

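The genes described here are 9 markers and therapy targets of ovarian cancer, named in a list and looked up by symbol: MUC16, WFDC2, FOLR1, MSLN, MUC1, CLDN6, SLC34A2, VTCN1 and CD276. Each matched 1 Ensembl identifier among the 19251 genes listed in every library. The series measured RNA in 12 libraries from 2 established human ovarian cancer cell lines, both labelled wild type. CAOV3 is labelled an epithelial line of high grade serous type and TOV21G an epithelial line of clear cell type. For each line there were 3 control libraries, labelled as untreated, and 3 libraries from cells kept for 16 h with 10% ascites, the fluid that gathers in the abdomen of patients with ovarian cancer. Wells were seeded with 250000 cells in 1.5 mL of DMEM medium with 10% fetal bovine serum, and 150 µL of ascites was added. The labels name no addition to the control wells and say nothing of the source or number of the ascites samples. They also do not say whether the 3 libraries of a group came from separate cultures, so p-values measure the spread between these libraries only.

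These genes code for proteins that are measured in blood or used as handles for treatment. MUC16 is the large transmembrane mucin whose shed part carries the CA125 antigen, and WFDC2 codes for the secreted protein HE4. Both are followed in the serum of patients with ovarian cancer. FOLR1 (folate receptor alpha), MSLN (mesothelin), MUC1 (a transmembrane mucin), CLDN6 (a tight junction claudin), SLC34A2 (the phosphate transporter NaPi2b), VTCN1 (B7-H4) and CD276 (B7-H3) lie at the cell surface, where antibodies, antibody-drug conjugates or engineered T cells can bind them. Serous tumours are the usual setting in which MUC16, WFDC2, FOLR1 and MSLN are abundant.

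The libraries held between 26697609 and 34491304 reads, and each value given is a read count per gene as normalised by the authors. Keratin genes were abundant in CAOV3, where KRT8 averaged 66468 ± 562 in controls (SD, n = 3), and lower but present in TOV21G, where it averaged 5287 ± 386. All 7 epithelial markers listed were lower in TOV21G, with CDH1 at 13.3 ± 6.07 and CLDN4 at 30.1 ± 4.41 in its controls (SD, n = 3 each). Of markers used for clear cell tumours, GPX3 averaged 270 ± 22.7 in TOV21G controls (SD, n = 3) and was at 0 in the CAOV3 controls, and NAPSA was low in both, at 8.11 ± 3.44 and 3.51 ± 1.09 (SD, n = 3 each). PAX8 and WT1, listed here as ovarian and Mullerian lineage markers, were low in CAOV3, with means of 19.1 ± 1.18 and 4.59 ± 2.11 in its controls, against 7032 ± 259 and 228 ± 7.85 in those of TOV21G (SD, n = 3 each). Leukocyte markers were represented by CD14 and ITGAM, 2 of 7 genes on that list. The others were not found by symbol among the 19251 listed genes. Their summed value ran from 77.2 to 97.9 in CAOV3 controls, 70.6 to 96.2 in CAOV3 ascites, 41.9 to 63.95 in TOV21G controls and 61.9 to 65.4 in TOV21G ascites.

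The members lie on 7 chromosomes, and their positions follow GENCODE release 29 on GRCh38. MUC16 (ENSG00000181143) lies at chr19:8848844-8981342 on the minus strand, with 43830 bases of merged exons, and is the longest of the set. MUC1 (ENSG00000185499) lies at chr1:155185824-155192916 on the minus strand with 4717 exon bases, and VTCN1 (ENSG00000134258) on the same strand of that chromosome at chr1:117143587-117210960 with 3027. MSLN (ENSG00000102854) is at chr16:760762-768865 on the plus strand with 2560 exon bases, and CLDN6 (ENSG00000184697) at chr16:3014712-3020071 on the minus strand with 1739. WFDC2 (ENSG00000101443) is at chr20:45469706-45481532 on the plus strand with 1382 exon bases, and FOLR1 (ENSG00000110195) at chr11:72189558-72196323 on the plus strand with 1648. SLC34A2 (ENSG00000157765) is at chr4:25648011-25678748 on the plus strand with 5045 exon bases, and CD276 (ENSG00000103855) at chr15:73683966-73714518 on the plus strand with 5542. All 9 are annotated as protein coding. The build and annotation used for counting were not given in the sources used here, so positions describe the annotation and entered no test.

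Some reads of these genes could be counted elsewhere. CLDN6 shared 8.01% of the 50-base words of its transcripts with other genes, its neighbour CLDN9 among them, and 40 of its exon bases with TNFRSF12A on the opposite strand. VTCN1 shared 3.14% of such words with other genes, CD276 1.49% and FOLR1 1.34%, and the other members shared none. The longest MUC1 transcript repeated 42.4% of its 50-base words within itself, since the gene codes for a tandem repeat. MUC1 also shared 48 exon bases, 1.02% of its length, with a gene model on the same strand. How the authors' counting treated such reads, and whether it used strand, was not given in the sources used here, so the levels of MUC1 and CLDN6 carry this uncertainty in every group.

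RefSeq promoter windows of 300 bases (GRCh38.p14, 250 bases before to 50 after an annotated start) were found for 7 of the 9 members, and FOLR1 and MSLN had no entry. Only the first window listed for each symbol was used, so any other start of a gene was not searched. The windows of SLC34A2, CD276 and CLDN6 lie inside the gene spans given above, and that of MUC16 lies outside its span. The windows of the gene that responded to ascites, of the most abundant member and of the member with no read in CAOV3 are printed 5′ to 3′ on the coding strand, with matches to TATAAA or GGGCGG, on either strand, in capitals. They lie at chr1:155192866-155193165 (minus) for MUC1, chr15:73684133-73684432 (plus) for CD276 and chr4:25655601-25655900 (plus) for SLC34A2.
MUC1: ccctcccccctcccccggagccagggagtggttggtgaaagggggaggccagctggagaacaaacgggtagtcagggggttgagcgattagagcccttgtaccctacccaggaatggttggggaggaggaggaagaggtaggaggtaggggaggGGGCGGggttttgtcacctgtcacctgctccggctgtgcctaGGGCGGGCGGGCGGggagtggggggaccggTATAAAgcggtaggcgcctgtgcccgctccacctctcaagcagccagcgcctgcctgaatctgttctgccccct
CD276: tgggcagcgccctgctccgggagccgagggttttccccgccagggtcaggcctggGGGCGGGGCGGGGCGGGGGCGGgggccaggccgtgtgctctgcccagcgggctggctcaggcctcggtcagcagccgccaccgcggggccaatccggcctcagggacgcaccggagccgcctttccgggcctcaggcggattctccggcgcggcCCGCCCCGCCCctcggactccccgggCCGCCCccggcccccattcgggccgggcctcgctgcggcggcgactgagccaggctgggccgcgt
SLC34A2: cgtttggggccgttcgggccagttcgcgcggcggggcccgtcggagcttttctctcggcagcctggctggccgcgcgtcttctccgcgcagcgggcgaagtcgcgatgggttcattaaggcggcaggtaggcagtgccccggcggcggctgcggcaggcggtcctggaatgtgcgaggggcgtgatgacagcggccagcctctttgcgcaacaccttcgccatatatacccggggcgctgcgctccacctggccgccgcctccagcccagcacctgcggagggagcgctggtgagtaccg
The MUC1 window held 1 match to TATAAA, which begins 24 bases before the start, and 4 matches to GGGCGG, 3 of which overlap. The CD276 window held 7 matches to GGGCGG, some overlapping, and none to TATAAA, and the SLC34A2 window held neither. Among all 35116 windows in the table, 11.5% held TATAAA and 45.0% held GGGCGG. CD276 and SLC34A2 had GC contents of 80.3% and 70.7%, above those of 97.7% and 81.2% of the windows, and MUC1 had 65.7%. The palindrome TTCNNNGAA, the core letters bound by STAT factors, was present in none of the 7 members' windows and in 7.66% of all windows. TGACGTCA, the cAMP response element, was present once, in the CLDN6 window, and in 1.85% of all windows. A match of letters is a description of the window and was not related to any value here.

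In untreated cells the clear cell line held more RNA of nearly every member than the serous line. CD276, MUC1, MSLN, CLDN6, SLC34A2, VTCN1, FOLR1 and WFDC2 were higher in TOV21G, and MUC16 was barely detected in either line. Differences were tested with limma on log2(value + 1) over 17616 genes with a value of at least 10 in at least 3 libraries, and a gene was called at a Benjamini-Hochberg adjusted p under 0.05. By this test 8 of the 9 members were called, all higher in TOV21G, and MUC16 was not. The lines differed across the transcriptome, so this count stands against a background of 82.2% of tested genes called and 40.8% called higher in TOV21G. For 6 members the filter itself rested on 1 line: WFDC2, FOLR1, CLDN6, SLC34A2 and VTCN1 passed only through TOV21G libraries and MUC16 only through CAOV3 libraries. The p-values of these 6 between the lines, here and below, are therefore given as descriptions. The control libraries of the lines did not overlap for any of the 9 members, nor for 82.6% of the tested genes. Only MSLN, MUC1 and CD276 reached the filter value in at least 3 libraries of both lines. The median log2 difference over the members was 3.09, also with SLC34A2 set to its lower bound, and that over all tested genes was -0.02.

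**Figure D1:**
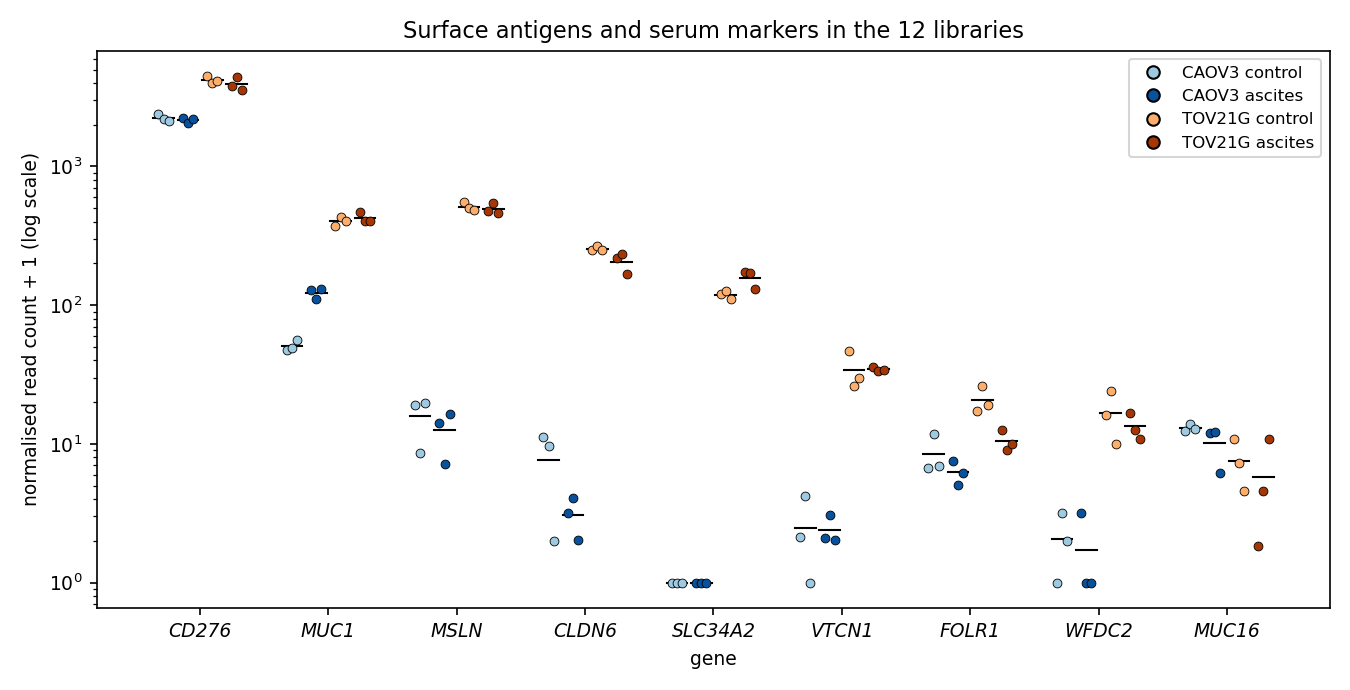
Normalised read count plus 1 on a log axis for each of the 9 genes, with 1 point per library, a black bar at the mean of the 3 libraries, and the 4 groups in separate colours. The control and ascites points of MUC1 in CAOV3 are apart (46.5 to 55.4 against 109 to 129), SLC34A2 is at 0 in all 6 CAOV3 libraries, and levels of different genes in this plot are not corrected for length.

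The 2 serum markers had little RNA in these lines. MUC16 read 11.3, 12.9 and 11.9 in the CAOV3 controls and 9.76, 6.29 and 3.59 in the TOV21G controls. The TOV21G values lay below those of CAOV3, but they rest on 34 and 19 reads in all, and the log2 difference of -0.87 ± 0.54 (SE, limma adjusted p = 0.147) was not called. Per kilobase of exons MUC16 averaged 0.275 and 0.149, below which lay 4.4% of the listed genes in each line. WFDC2 read 0, 2.15 and 0.990 in CAOV3 controls and 15.2, 23.1 and 8.97 in TOV21G controls. The groups do not overlap, and the log2 difference was 3.09 ± 0.52 (SE, limma adjusted p = 9.0e-05). Since CAOV3 gave only 3 WFDC2 reads against 46, the ratio of 14.5 has an exact 95% counting interval from 4.65 to 72.7. Intervals of this kind cover counting error only.

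Among the surface targets, SLC34A2 had reads in TOV21G and none in CAOV3. It read 119, 125 and 110 in the TOV21G controls and 0 in each CAOV3 library, where the 3 controls together held 0 reads. With a floor of 3 reads over the CAOV3 group, SLC34A2 was at least 111-fold higher in TOV21G. CLDN6, a claudin of embryonic epithelia that reappears in some tumours, read 250, 264 and 250 in TOV21G controls and 10.2, 8.61 and 0.990 in CAOV3 controls. Every TOV21G library exceeded every CAOV3 library, by 38.6-fold in the means (log2 difference 5.42 ± 0.51 SE, limma adjusted p = 2.4e-07).

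MSLN, a GPI-anchored protein that binds MUC16, read 552, 497 and 481 in TOV21G controls against 18.2, 7.53 and 18.8 in CAOV3 controls. That is 34.4-fold in the means, with a log2 difference of 5.11 ± 0.33 (SE, limma adjusted p = 3.8e-09). CAOV3 therefore held only 42 reads of MSLN in its 3 controls and TOV21G 1519. FOLR1, which carries folate into the cell by endocytosis, read 16.3, 25.2 and 17.9 in TOV21G controls and 5.67, 10.8 and 5.94 in CAOV3 controls. Although these groups do not overlap and the difference was called (log2 1.32 ± 0.29 SE, limma adjusted p = 9.3e-04), both lines held little of it, 59 and 21 reads. MUC1 read 372, 428 and 406 in TOV21G controls and 46.5, 48.4 and 55.4 in CAOV3 controls, 8.01-fold apart (log2 2.98 ± 0.11 SE, limma adjusted p = 8.9e-12).

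The B7 proteins VTCN1 and CD276, which dampen T cell activity, had very different levels. VTCN1 read 45.5, 25.2 and 28.7 in TOV21G controls and 1.13, 3.23 and 0 in CAOV3 controls (log2 difference 3.99 ± 0.43 SE, limma adjusted p = 1.1e-06). CD276 read 4486, 3998 and 4143 in TOV21G controls and 2396, 2213 and 2129 in CAOV3 controls. This was the smallest called difference of the set, 1.87-fold (log2 0.91 ± 0.07 SE, limma adjusted p = 3.6e-08), on the most reads, 12570 and 6319. In bulk RNA fewer cells that express a gene and less RNA per cell cannot be told apart, which holds for each of these differences.

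Per kilobase of merged exons the members could be ordered within a group. In CAOV3 controls CD276 came first at 405, followed by MUC1 at 10.6, MSLN at 5.79, FOLR1 at 4.53, CLDN6 at 3.80, WFDC2 at 0.758, VTCN1 at 0.480, MUC16 at 0.275 and SLC34A2 at 0. CD276 and MUC1 each stood clear of the next gene in all 3 libraries, whereas the ranges of neighbours from MSLN to MUC16 overlapped. In TOV21G controls the order was CD276 at 760, MSLN at 199, CLDN6 at 147, MUC1 at 85.2, SLC34A2 at 23.4, FOLR1 at 12.01, WFDC2 at 11.4, VTCN1 at 11.0 and MUC16 at 0.149. Neighbours down to FOLR1 did not overlap in that line, nor did VTCN1 and MUC16, while FOLR1, WFDC2 and VTCN1 had overlapping ranges. CD276 exceeded 81.3% of all listed genes in CAOV3 and 90.7% in TOV21G by this measure. MSLN exceeded 19.1% in CAOV3 and 67.0% in TOV21G.

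Ascites raised 1 of the 9 members in CAOV3, the mucin gene MUC1. Its normalised count was 46.5, 48.4 and 55.4 in the controls and 128, 109 and 129 after ascites. The lowest ascites library was thus well above the highest control, and the means rose from 50.1 ± 4.69 to 122 ± 11.0 (SD, n = 3 each), 2.44-fold. The log2 difference was 1.27 ± 0.11 (SE), with a 95% interval from 1.04 to 1.50 and a limma adjusted p of 6.1e-05. The means rest on 142 and 350 reads. This call stands against 1.73% of tested genes called in either direction and 0.636% called higher in ascites. All 21 other settings and left-out libraries that gave a value also called it, with adjusted p from 2.8e-11 to 0.0050. After ascites the MUC1 level of CAOV3 was still below every TOV21G library. Of the 305 genes called in CAOV3, 36.7% were higher after ascites, and with size factors computed within each line 47.1% of 427 calls were.

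None of the 15 listed genes within 100 kb of MUC1 was called in either line. Their log2 differences in CAOV3 ran from -0.27 to 0.27. Among them TRIM46 and KRTCAP2 were at 0.27 and 0.21 with limma adjusted p of 0.488 and 0.671. THBS3, with the smallest adjusted p of these genes in CAOV3, was at 0.21 (limma adjusted p = 0.183). Across the 12 libraries, after the mean of each line was removed, the genes whose log2 values followed MUC1 most closely were FGB (fibrinogen beta chain, Pearson r = 0.978) and CYP24A1 (the vitamin D 24-hydroxylase, r = 0.977). FGB went from a mean of 83.0 to 1153 in CAOV3 and read 4484 and 4468 in the TOV21G groups. CYP24A1 went from 17.6 to 109.8 in CAOV3 and was at 0 in TOV21G. These genes were picked as the highest of all tested, the 12 points share the treatment, and the correlations are descriptions.

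Epithelial markers did not all move in 1 direction in CAOV3. The median log2 difference of the 7 was 0.17, against -0.002 over all tested genes. KRT8 and KRT18, 2 of the 7 epithelial markers, rose by log2 0.29 ± 0.06 and 0.33 ± 0.06 (SE, limma adjusted p = 0.023 and 0.010). Leaving out any 1 of the 6 CAOV3 libraries ended the call of KRT8 (adjusted p = 0.056 to 0.102), and leaving out CAOV3 ascites replicate 1 or 3 ended that of KRT18 (adjusted p = 0.050 and 0.052). CDH1, which codes for E-cadherin, averaged 425 ± 33.1 in controls and 272 ± 8.43 after ascites (SD, n = 3 each), with groups that do not overlap and a log2 difference of -0.64 that was not called (limma adjusted p = 0.438). KRT19 averaged 16839 ± 318 and 16198 ± 658 (SD, n = 3 each) and was not called (log2 -0.06, limma adjusted p = 0.624). KRT7, EPCAM and CLDN4 were not called either, but all their ascites libraries lay above their controls. KRT7 went from 21580 ± 428 to 24484 ± 718, EPCAM from 735 ± 52.2 to 825 ± 11.7 and CLDN4 from 3853 ± 258 to 4249 ± 20.2 (SD, n = 3 each). Groups did not overlap for 24.2% of all tested genes. The summed epithelial markers ran from 156825 to 158112 in controls and from 181243 to 191764 after ascites, and most of it is keratin. Among 6 mesothelial and fibroblast markers tested, COL1A2 was called lower in CAOV3, on 7 reads in controls against 1 after ascites. It passed the filter only through the TOV21G libraries, where its control mean was 10854, and edgeR and DESeq2 did not call it in CAOV3 (adjusted p = 0.232 and 0.314). No call was made in either line among the 3 ovarian lineage and 2 leukocyte markers tested, and endothelial, erythroid and mesothelin family genes gave no gene that could be tested. KRT8 differed between the responses of the lines (log2 -0.41 ± 0.08 SE, limma adjusted p = 0.048), a call that 10 of the 12 fits leaving out 1 library did not make (adjusted p = 0.077 to 0.147), all but those without TOV21G control replicate 2 and TOV21G ascites replicate 2. No marker was called in TOV21G. The MUC1 rise was log2 1.27 ± 0.11 (SE), and the part of these shifts in it was not tested.

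The other 8 members were not called in CAOV3. CD276 read 2396, 2213 and 2129 in the controls and 2236, 2066 and 2185 after ascites, with overlapping groups and a log2 difference of -0.05 (95% interval -0.21 to 0.10, limma adjusted p = 0.828). CLDN6 read 10.2, 8.61 and 0.990 in the controls and 2.19, 3.07 and 1.02 after ascites. The third control lay apart from the other controls and level with the third ascites library, at 1 read each. The log2 difference of -1.01 (95% interval -2.10 to 0.08) was not called (limma adjusted p = 0.435). Without CAOV3 control replicate 3 it was -1.80 with an adjusted p of 0.0086, on 18 reads against 6 when all libraries are counted. MSLN read 13.1, 6.13 and 15.3 after ascites, which overlaps its controls (log2 -0.32, 95% interval -1.03 to 0.38).

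FOLR1 read 6.56, 4.09 and 5.12 after ascites in CAOV3 (log2 -0.40, 95% interval -1.04 to 0.23). MUC16 read 10.9, 11.2 and 5.12, each below the controls, on 26 against 34 reads (log2 -0.44, 95% interval -1.60 to 0.73, limma adjusted p = 0.810). WFDC2 and VTCN1 had 2 and 4 reads in the 3 ascites libraries, and SLC34A2 had 0. At this depth a fall of these 3 genes in CAOV3 could not be detected. Groups that do not overlap were seen for MUC1 and MUC16, 2 of the 9 members, and for 24.2% of all tested genes. The median log2 difference over the members was -0.33, and that over all tested genes was 0.00.

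**Figure D2:**
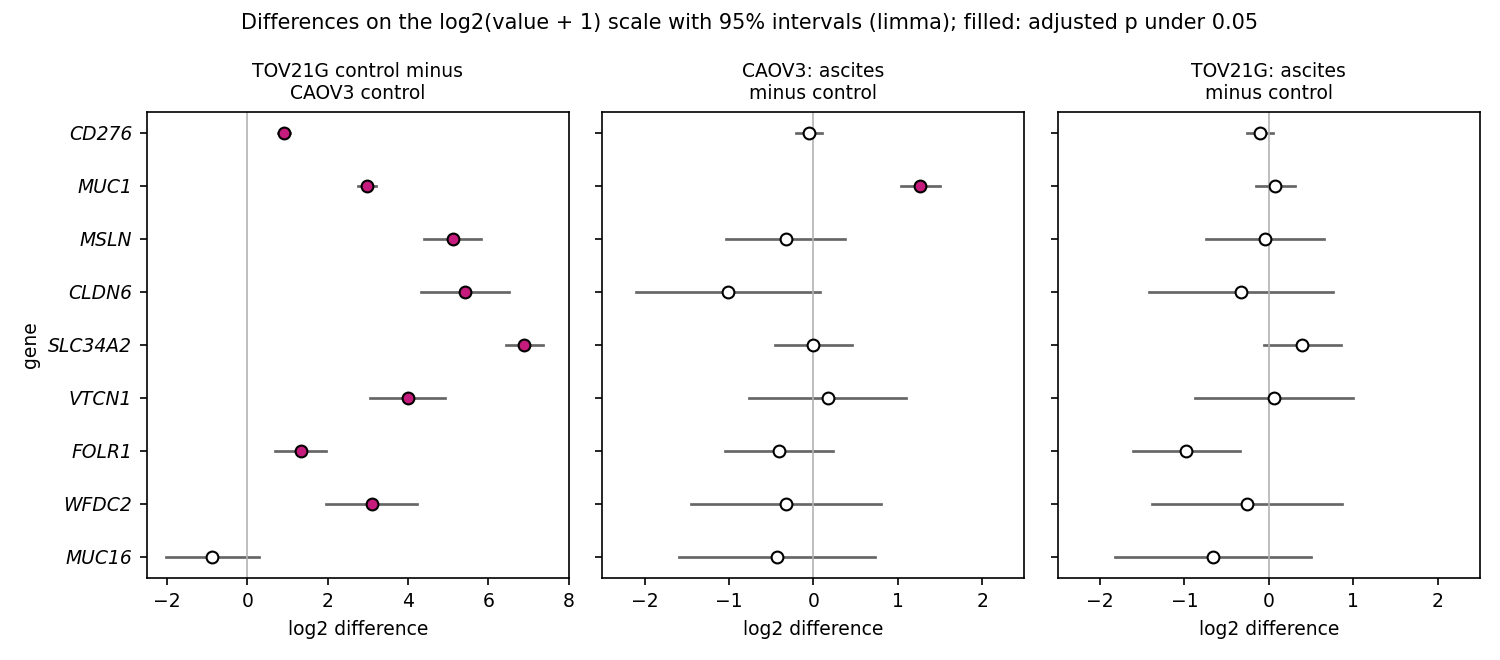
Log2 differences (points) with 95% intervals (lines) from limma for the 9 genes: TOV21G controls minus CAOV3 controls on the left, and ascites minus control in each line in the middle and on the right, with filled points for an adjusted p under 0.05. All but MUC16 are filled on the left, MUC1 alone in the middle at 1.27, and none on the right. The left value of SLC34A2 is set against libraries at 0 and depends on the added 1.

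In TOV21G no member was called after ascites by limma, against 0.409% of tested genes. FOLR1 was the only member with an unadjusted p under 0.05, and edgeR and DESeq2 on the recovered reads also called none, although DESeq2 gave no adjusted p for WFDC2, FOLR1, VTCN1 and MUC16. MUC1, which rose in CAOV3, read 372, 428 and 406 in the controls and 465, 402 and 405 after ascites. These groups overlap, and the log2 difference was 0.08 (95% interval -0.15 to 0.31, limma adjusted p = 0.846). An effect of the size seen in CAOV3 lies outside that interval.

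FOLR1 read 16.3, 25.2 and 17.9 in TOV21G controls and 11.6, 7.96 and 8.95 after ascites. Every ascites library was below every control, with 33 reads against 59. The log2 difference was -0.98 ± 0.29 (SE, 95% interval -1.61 to -0.34), and its limma p of 0.0057 became 0.298 after adjustment over all genes. Over the other settings and left-out libraries the adjusted p ran from 0.189 to 0.661.

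SLC34A2 read 119, 125 and 110 in the controls and 171, 170 and 130 after ascites, again with no overlap but in the other direction. Its means were 118 ± 7.27 and 157 ± 23.6 (SD, n = 3 each), and the log2 difference of 0.40 (95% interval -0.06 to 0.85, limma adjusted p = 0.593) was not called. EdgeR gave an adjusted p of 0.341. CLDN6 read 250, 264 and 250 in the controls and 217, 233 and 166 after ascites. All 3 ascites libraries were lower, with replicate 3 the lowest, and the log2 difference was -0.33 (95% interval -1.42 to 0.77, limma adjusted p = 0.866). The shared fit also takes in the scatter of CLDN6 among the low CAOV3 libraries, and in TOV21G fitted alone the interval ran from -0.60 to -0.05 with an adjusted p of 0.714. These 3 genes, FOLR1, SLC34A2 and CLDN6, were the members whose TOV21G groups did not overlap, 3 of 9 against 11.1% of all tested genes.

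The groups of the remaining members overlapped in TOV21G. MSLN read 477, 548 and 459 after ascites, against 552, 497 and 481 before (log2 -0.05, 95% interval -0.75 to 0.66). CD276 read 3803, 4384 and 3584 against 4486, 3998 and 4143 (log2 -0.10, 95% interval -0.26 to 0.05, limma adjusted p = 0.661). For CD276 these intervals leave room in either line for a fall of at most 0.26 and a rise of at most 0.10 on the log2 scale. VTCN1 read 34.8, 32.7 and 33.1 after ascites, all inside the range of its controls (log2 0.06, 95% interval -0.87 to 0.99). WFDC2 read 15.7, 11.5 and 9.84 (log2 -0.26, 95% interval -1.39 to 0.87). MUC16 read 0.828, 3.54 and 9.84, on 16 reads (log2 -0.67, 95% interval -1.83 to 0.50). The members' median log2 difference in TOV21G was -0.11, and that over all tested genes was -0.02.

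**Figure D3:**
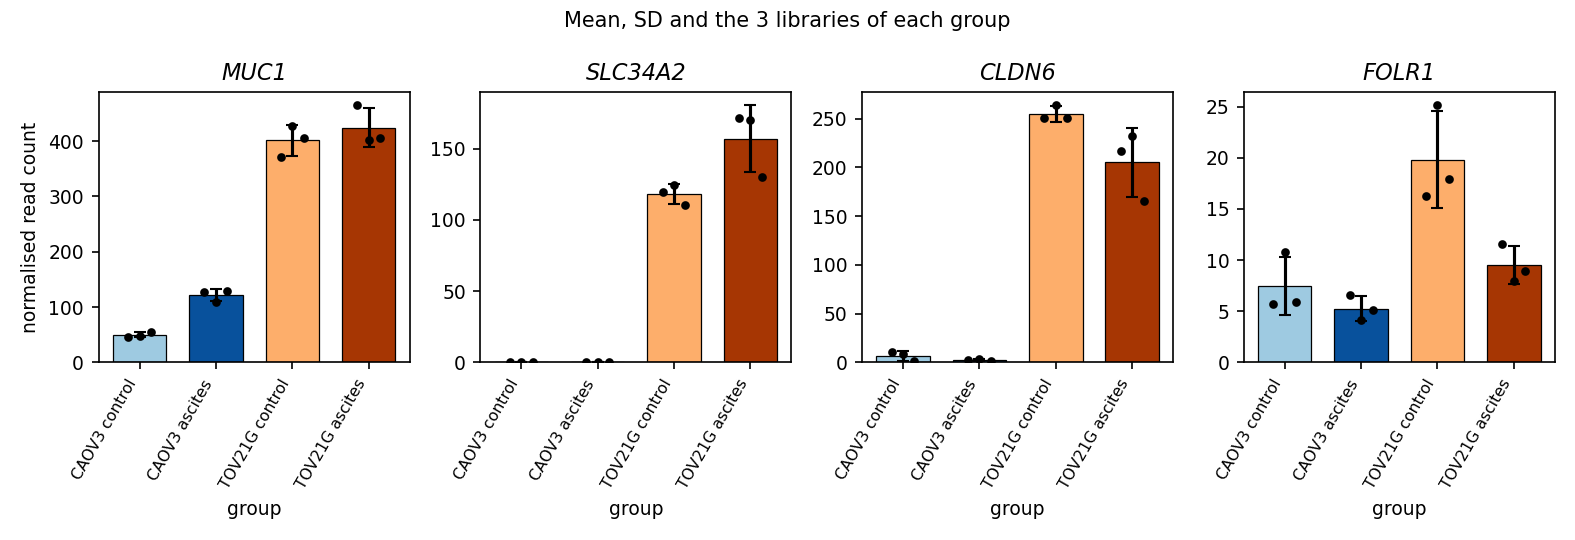
Normalised read counts of MUC1, SLC34A2, CLDN6 and FOLR1 in the 4 groups on linear axes from 0, with bars at the mean, error bars of 1 SD and points for the 3 libraries. MUC1 goes from 50.1 to 122 in CAOV3 and from 402 to 424 in TOV21G, and the FOLR1 points of TOV21G after ascites (7.96 to 11.6) all lie below those of its controls.

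The response of MUC1 differed between the lines when the difference itself was tested. The response of TOV21G minus that of CAOV3 was -1.19 ± 0.15 on the log2 scale (SE, 95% interval -1.52 to -0.86, limma adjusted p = 0.0044). It was the only member called in this comparison, against 0.545% of tested genes. The difference for MUC1 was called in 19 of 20 other settings and left-out libraries. A fit with the replicate number as a block did not call it (limma adjusted p = 0.083). For CLDN6 the difference of the responses was 0.68 (95% interval -0.86 to 2.23), for FOLR1 -0.57 (95% interval -1.48 to 0.33), and for CD276 -0.05 (95% interval -0.27 to 0.17).

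Relatives of the members showed few calls. In the B7 family, the ligands and receptors that tune T cell activation, 5 further genes were tested and VSIR, a checkpoint receptor also known as VISTA, was the only one called after ascites or in the difference of responses. VSIR read 21.7, 19.9 and 18.8 in TOV21G controls and 49.7, 37.2 and 30.4 after ascites. It rose by log2 0.90 ± 0.15 (SE, limma adjusted p = 0.020), from 60 reads to 136, and without TOV21G control replicate 3 the adjusted p was 0.0924. With TOV21G fitted alone it was 0.427. In CAOV3, where its level was far higher, VSIR went from 572 ± 23.2 to 471 ± 16.5 (SD, n = 3 each), a log2 difference of -0.28 that was not called (limma adjusted p = 0.471) but was with CAOV3 fitted alone (adjusted p = 0.0069). The responses of the lines differed by 1.17 ± 0.21 (SE, limma adjusted p = 0.026), and leaving out any 1 of the 6 CAOV3 libraries, or TOV21G control replicate 3, ended this call (adjusted p = 0.070 to 0.088). VSIR lies inside an intron of CDH23 on the opposite strand and shares no exon bases with it. CD274, which codes for PD-L1, was not called in either line, and NCR3LG1, a ligand for a receptor of natural killer cells, went from 2919 ± 18.8 to 2670 ± 66.8 in CAOV3 (SD, n = 3 each, limma adjusted p = 0.363).

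Among 13 other claudins, the strand-forming proteins of tight junctions, CLDN7 was the only one called after ascites or in the difference of responses. It read 490, 478 and 461 in CAOV3 controls and 269, 324 and 313 after ascites. The ascites libraries were all lower, and it fell by 0.66 ± 0.10 on the log2 scale (SE, limma adjusted p = 0.0038). All 21 other settings and left-out libraries called this fall. In TOV21G CLDN7 read 131, 138 and 140 before and 158, 153 and 126 after, which overlap (log2 0.09, limma adjusted p = 0.798). The difference between the responses was 0.75 ± 0.14 (SE, limma adjusted p = 0.036). Of the 12 fits that leave out 1 library, only that without TOV21G ascites replicate 3 called this difference (adjusted p = 0.018), and the others gave 0.051 to 0.101. CLDN7 shares 10.8% of its exon bases with a gene model on the same strand and 1.52% with ELP5 on the other. CLDN1 and CLDN4, the claudins with the highest mean per kilobase over the 12 libraries, had log2 differences of 0.14 each in CAOV3 and were not called.

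Of the 6 other mucins tested, none was called after ascites in either line. MUC13, an intestinal transmembrane mucin, averaged 1419 ± 21.9 in CAOV3 controls (SD, n = 3) and was at 0 in all 6 TOV21G libraries, the reverse of the order seen for MUC1. In the untreated lines 2 of the 6 were higher and 4 lower in TOV21G. The 17 enzymes tested that attach or extend mucin-type sugars had no call after ascites, and neither did the 12 folate carriers and enzymes, the 3 other phosphate transporters or WFDC3, the only other gene of WAP domains tested. SLC20A1, the widely expressed sodium phosphate carrier, averaged 14716 ± 312 in CAOV3 controls, where SLC34A2 was at 0, and 7642 ± 162 in TOV21G controls (SD, n = 3 each).

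**Figure D4:**
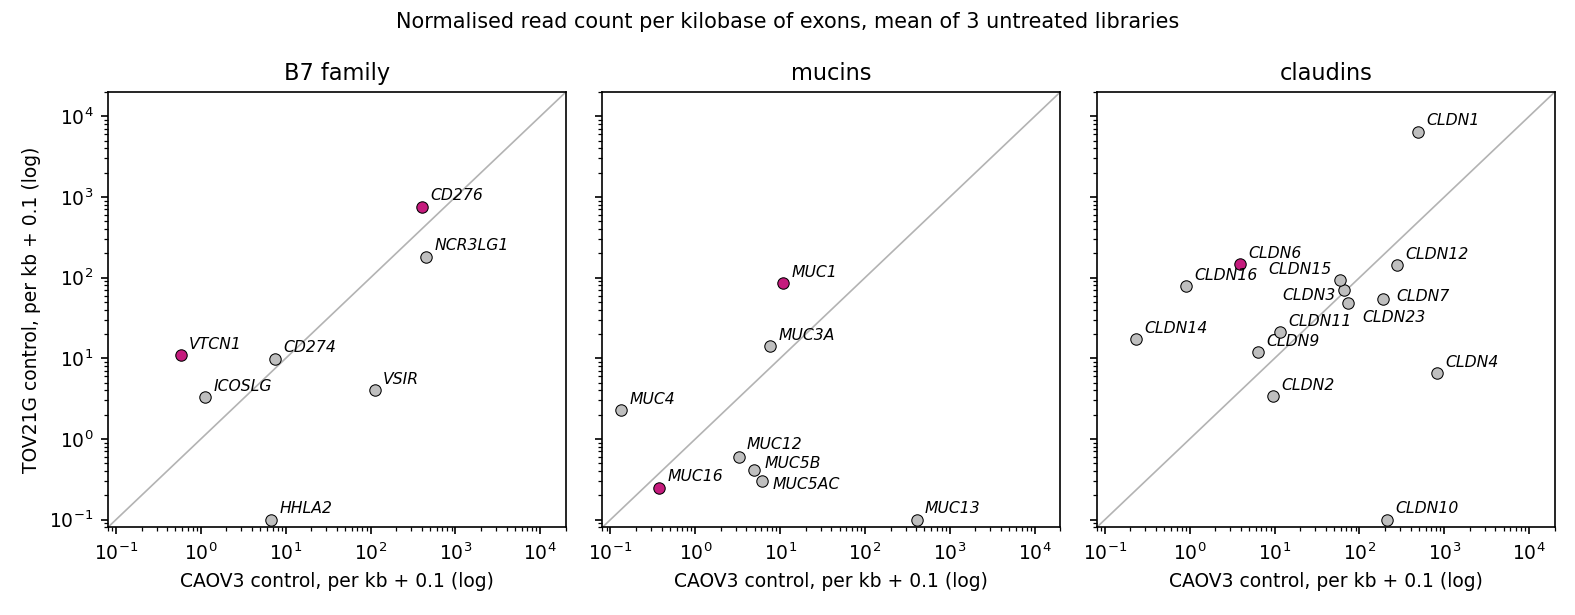
Mean normalised read count per kilobase of exons plus 0.1 in untreated CAOV3 (x axis, log) and untreated TOV21G (y axis, log) for genes of the B7 family, mucins and claudins, with members in colour, relatives in grey and a line of equal levels. MUC1, CLDN6, VTCN1 and CD276 lie above the line, whereas MUC13 (406 against 0), CLDN4 (819 against 6.39) and VSIR (112 against 3.93) lie below it.

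Among 11 sheddases and proprotein convertases, which cut surface proteins or their precursors, FURIN was called in TOV21G. FURIN, a protease of the Golgi that cleaves the mesothelin precursor, fell by 0.27 ± 0.05 on the log2 scale (SE, limma adjusted p = 0.036), from 4920 ± 216 to 4076 ± 294 (SD, n = 3 each). Leaving out 1 library ended this call in 10 of 12 fits, all but those without TOV21G control replicate 2 and TOV21G ascites replicate 2, with adjusted p up to 0.120. In CAOV3 FURIN went from 7416 ± 165 to 6389 ± 101 (SD, n = 3 each), a log2 difference of -0.21 with a limma adjusted p of 0.053. Of 21 other settings and left-out libraries, 9 called the fall in CAOV3 and 9 called that in TOV21G. The responses of the lines did not pass the test of their difference (-0.06, limma adjusted p = 0.748). ADAM9, a sheddase, was not called in either line.

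Further surface targets and fluid markers gave no call. None of 22 further targets of antibodies or cell therapies was called after ascites in either line, and none of 13 further markers measured in blood or fluid. For the fluid markers IL6, CXCL8 and INHBA, all TOV21G ascites libraries still lay above the controls. In TOV21G, IL6 went from 524 ± 41.9 to 840 ± 14.5, CXCL8 from 173 ± 6.34 to 292 ± 32.6 and INHBA from 1873 ± 20.1 to 2076 ± 45.5 (SD, n = 3 each). Groups did not overlap in TOV21G for 11.1% of all tested genes. These 3 averaged 0, 11.0 and 8.34 in CAOV3 controls, and the shared fit also takes in the scatter of those low libraries. L1CAM, an adhesion molecule, averaged 108 ± 8.14 in CAOV3 controls and 45780 ± 803 in TOV21G controls (SD, n = 3 each). SPP1, which codes for the secreted protein osteopontin, averaged 4.97 ± 4.09 and 137933 ± 9929 (SD, n = 3 each). After ascites L1CAM had a log2 difference of -0.40 in CAOV3 (limma adjusted p = 0.088), and without CAOV3 ascites replicate 3 it was -0.50 with an adjusted p of 0.033. MET and LGALS3BP, abundant in both lines, had differences of 0.01 and 0.13 in CAOV3 and of 0.01 and -0.09 in TOV21G, none of them called.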

How the data were processed

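RNA from 12 libraries of 2 cell lines was sequenced. The submitters' processing notes name Trim Galore, cutadapt, STAR, HTSeq and DESeq, without versions or settings, and strand use, build and annotation were not given in the sources used here. The deposited signal per gene is a normalised read count, and in every library the values were whole multiples of 1 step (largest deviation 5.33e-05 reads), so whole reads were recovered by dividing by it. The steps matched size factors from the median of ratios over all 12 libraries.

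Differences were tested with limma 3.58.1 in R 4.3.3 (lmFit, eBayes with trend) on log2(signal + 1), with a mean per group, all 12 libraries in 1 fit and 8 residual degrees of freedom. Genes with a value of at least 10 in at least 3 libraries were tested, 17616 in all. P-values are two-sided and Benjamini-Hochberg adjusted within each comparison, with calls made below 0.05. Fold changes on this scale understate the change of low genes. Alternatives were pseudocounts of 0.5 and 8, no filter, TMM scaling, size factors within each line, edgeR 4.0.16 and DESeq2 1.42.0 on recovered reads, each line alone, a replicate block, and leaving out each library.

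The 9 members and 17 gene lists were chosen with earlier results of these data known. The lists cover other surface targets, other blood or fluid markers, B7 family, mucins, claudins, folate genes, phosphate transporters, WAP domain genes, mesothelin relatives, sheddases, O-glycosylation enzymes, and markers of epithelial, ovarian or Mullerian, clear cell, leukocyte, mesothelial or fibroblast, and endothelial or erythroid cells. Named non-members are those called after ascites or in the difference of responses and the 2 most abundant per list, and, beside MUC1, its 2 closest followers. CD274, IL6, CXCL8, INHBA, the MUC1 neighbours TRIM46, KRTCAP2 and THBS3, and genes that overlap or share words with a named gene are named outside this rule. Closest followers were also sought for MSLN, CLDN6, SLC34A2 and CD276 and are not given here. Markers were named for checks of the labels, and 1 of them is not reported here. On simulated data for the CAOV3 comparison (17771 genes), limma called 93 of 100 genes changed by log2 1 and 100 of 100 changed by log2 2. It also made 27 false calls. The changed genes were drawn only from genes above a minimum mean in the CAOV3 controls. This recovery therefore says nothing of members with few reads in CAOV3. Gene symbols for 19087 of the identifiers came from a gene name table.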

Additional observations from a re-analysis of the deposited data

Results flagged for a closer look

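The response to ascites differed between the lines for 4 of the genes named above, by a test of the difference itself (TOV21G response minus CAOV3 response, limma, Benjamini-Hochberg adjustment). For MUC1 the difference was -1.19 on the log2 scale (SE 0.15, adjusted p = 0.0044), since all 3 ascites libraries of CAOV3 were above its controls and the TOV21G groups overlapped. All 12 fits leaving out 1 library called this difference, but the fit with the replicate number as a block did not (adjusted p = 0.083). For VSIR it was 1.17 (SE 0.21, adjusted p = 0.026), with all 3 ascites libraries of TOV21G above their controls and all 3 of CAOV3 below, and 7 of the 12 fits leaving out 1 library did not call it (adjusted p = 0.070 to 0.088). For CLDN7 it was 0.75 (SE 0.14, adjusted p = 0.036), with all 3 ascites libraries of CAOV3 below their controls and overlapping groups in TOV21G, and 11 of those 12 fits did not call it (adjusted p = 0.051 to 0.101). For KRT8 it was -0.41 (SE 0.08, adjusted p = 0.048), with all 3 ascites libraries of CAOV3 above their controls and overlapping groups in TOV21G, and 10 of those 12 fits did not call it (adjusted p = 0.077 to 0.147). Genes picked for a pattern like that of MUC1 were chosen by these values and got no such test. What lies behind these differences was not tested.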

How the results depend on the processing

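Over the 36 comparisons of a member, 723 values under other settings or without a library were computed, and 708 kept their call and direction or, where not called, moved by less than 1 SE. No called value changed sign, and 28 values of 11 comparisons that were not called did. The number of members called in CAOV3 ranged from 1 to 2 when libraries were left out, with CLDN6 added without CAOV3 control replicate 3. The deviations of same-numbered libraries correlated at -0.07, 0.06 and 0.01 in CAOV3 and at -0.17, -0.42 and 0.07 in TOV21G, over 11886 genes. Those of differently numbered libraries ran from -0.11 to 0.0969 in CAOV3 and from -0.344 to 0.455 in TOV21G. These correlations cannot settle whether same-numbered libraries were handled together. With a replicate block in the fit, MUC1 remained called in CAOV3 (adjusted p = 0.0050), its difference between lines had an adjusted p of 0.083, so that 0 members were called there, and 116, 13 and 9 genes were called in CAOV3, TOV21G and the difference of responses. Without the block these were 305, 72 and 96. Other counts for CAOV3 were 511 with edgeR, 507 with DESeq2, 1295 in that line alone and 172 to 344 without 1 library. For TOV21G they were 114, 151, 22 and 24 to 136. For the difference of responses they were 151 with TMM scaling, 155 with size factors within each line, 148 with edgeR, 210 with DESeq2 and 40 to 146 without 1 library. The cause was not tested, except that fits without a library have fewer samples. Between the untreated lines, 14480 genes were called and 14020 to 14575 without 1 library. Size factors within each line give no value between lines, and a line alone gives neither that nor a difference of responses. DESeq2 gave no adjusted p for WFDC2, FOLR1, VTCN1 and MUC16 after ascites. Depth limits MUC16, WFDC2, VTCN1 and FOLR1, with 2 to 116 reads per group, and SLC34A2 and CLDN6 in CAOV3.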
